A study of Mus musculus with 8 samples.

Results

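The antiproliferative genes of the Btg and Tob family (Btg1, Btg2, Btg3, Tob1 and Tob2), 2 Schlafen genes (Slfn1 and Slfn2) and Dapl1 were compared between wild-type and Bcl6-deficient mouse CD4 T cells. Of these 8 genes, chosen by name, 7 were read by a transcript cluster (the array's unit of measurement, a group of probes) that the platform annotation gives to that gene alone, out of 19938 genes measured in this way. Each of the 7 had 1 such cluster. Btg3 was not: both of its clusters are listed for Btg3 and for the pseudogene Gm7334 together, so neither was read as Btg3. The 8 genes were put together with earlier results of these data known.

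The samples were naive CD4 T cells, helper T cells that have not met antigen, sorted from wild-type animals (n = 4) and from animals with a conditional Bcl6-/- genotype restricted to T cells (n = 4, Bcl6 cKO below). Both groups were stimulated for 24 hours with anti-CD3 and anti-CD28 antibodies before RNA was taken, so every sample is of activated cells and none is of resting cells. The labels carry the tag Tf0 on all samples and do not explain it. They give no strain, age, sex or Cre driver, and do not say whether each sample is a separate mouse, so the p-values reflect only how far these samples spread, which may be technical. Total RNA was hybridised to whole-transcript arrays, 1 array a sample, and all values are log2 signals. Such arrays do not compare the level of one gene with that of another, so genes are compared by their differences between samples. The exceptions are a rough background range read from other genes, and list averages, which serve to set arrays side by side. In bulk RNA, fewer cells of a type and less RNA per cell cannot be told apart.

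Btg and Tob proteins share a conserved domain that binds the CCR4-NOT deadenylase, the complex that shortens the poly(A) tails of messenger RNAs, and they slow cell division when overexpressed. Btg1 and Btg2 help to hold naive T cells in quiescence, the resting state, by keeping messenger RNA scarce, and Tob1 restrains T cell activation. Slfn1 and Slfn2 are short Schlafen proteins: Slfn1 slows thymocyte growth when overexpressed, and T cells that lack functional Slfn2 fail to stay quiescent. Dapl1 (death-associated protein-like 1) is a small protein related to Dap, an inhibitor of autophagy, and is found in naive T cells.

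The upstream sequences of 3 of the genes are shown because Btg2 and Dapl1 had the smallest p-values of the 7 and lay on opposite sides of wild type, and Btg1 is the closest relative of Btg2. Each is the 250 bases before the annotated start, 5′ to 3′ on the gene's strand, from RefSeq (GRCm38.p6). All 8 genes have an entry there. Btg2 lies at chr1:134079156-134079405 on the minus strand, Btg1 at chr10:96616751-96617000 on the plus strand and Dapl1 at chr2:59484403-59484652 on the plus strand. Capitals mark the forkhead core TGTTTAC or its reverse complement.
Btg2: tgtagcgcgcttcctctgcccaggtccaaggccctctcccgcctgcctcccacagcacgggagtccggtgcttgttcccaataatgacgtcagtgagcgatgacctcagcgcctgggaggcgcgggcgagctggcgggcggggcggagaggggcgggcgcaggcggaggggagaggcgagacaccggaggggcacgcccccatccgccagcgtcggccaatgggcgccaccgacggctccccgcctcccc
Btg1: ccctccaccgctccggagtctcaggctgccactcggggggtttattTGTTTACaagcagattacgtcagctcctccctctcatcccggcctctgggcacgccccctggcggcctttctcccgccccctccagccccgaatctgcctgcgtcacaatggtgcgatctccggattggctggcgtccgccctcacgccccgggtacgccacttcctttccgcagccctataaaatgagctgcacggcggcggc
Dapl1: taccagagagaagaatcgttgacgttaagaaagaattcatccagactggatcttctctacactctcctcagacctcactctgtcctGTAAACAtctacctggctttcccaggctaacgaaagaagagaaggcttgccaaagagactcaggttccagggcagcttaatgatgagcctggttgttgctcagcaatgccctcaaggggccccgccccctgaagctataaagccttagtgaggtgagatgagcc

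Both strands of these windows were searched for TGTTTAC, for TTCNNNGAA, the spacing shared by Bcl6 and STAT sites, and for TTCCTAGAA and TTCCTGGAA, which are special cases of it. TGTTTAC was found upstream of Btg1 (first base at -204 from the start) and of Dapl1 (at -164, as GTAAACA), and in none of the other 6 genes. It is in 3.17% of all 32851 upstream windows of this length. TTCNNNGAA, which 7.02% of all windows hold, was in none of the 8 genes, nor were TTCCTAGAA (0.347%) and TTCCTGGAA (0.651%). The Btg2 window holds 73.2% G and C, that of Btg1 65.2% and that of Dapl1 50.0%, against a median of 52.4% over all windows.

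None of the 7 measured genes passed limma's test over all 19938 genes, at an adjusted p of 0.05. In the same test 44 genes (0.221%) passed. At an unadjusted p under 0.05 stood 4 of the 7, beside 10.9% of all genes: Btg1, Btg2 and Slfn1 were on the low side in Bcl6 cKO, where 6.17% of all genes stood, and Dapl1 on the high side, where 4.68% did. Of the 7 genes 6 had a lower mean in Bcl6 cKO and 1 a higher mean. Their median log2 difference (Bcl6 cKO minus wild type) was -0.15, against 0.0025 over all genes, of which 9509 were below and 10175 above wild type. Replicate 2 of Bcl6 cKO stood apart from the other arrays in platelet markers and in Lyz2, a myeloid marker, and values without it are given with those markers. All 7 lay above background: the lowest value of any of them was 8.13, while the Y chromosome genes Eif2s3y, Kdm5d and Uty read 4.58 to 5.83 on the arrays without Y-linked RNA, which was taken as the background range.

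**Figure D1:**
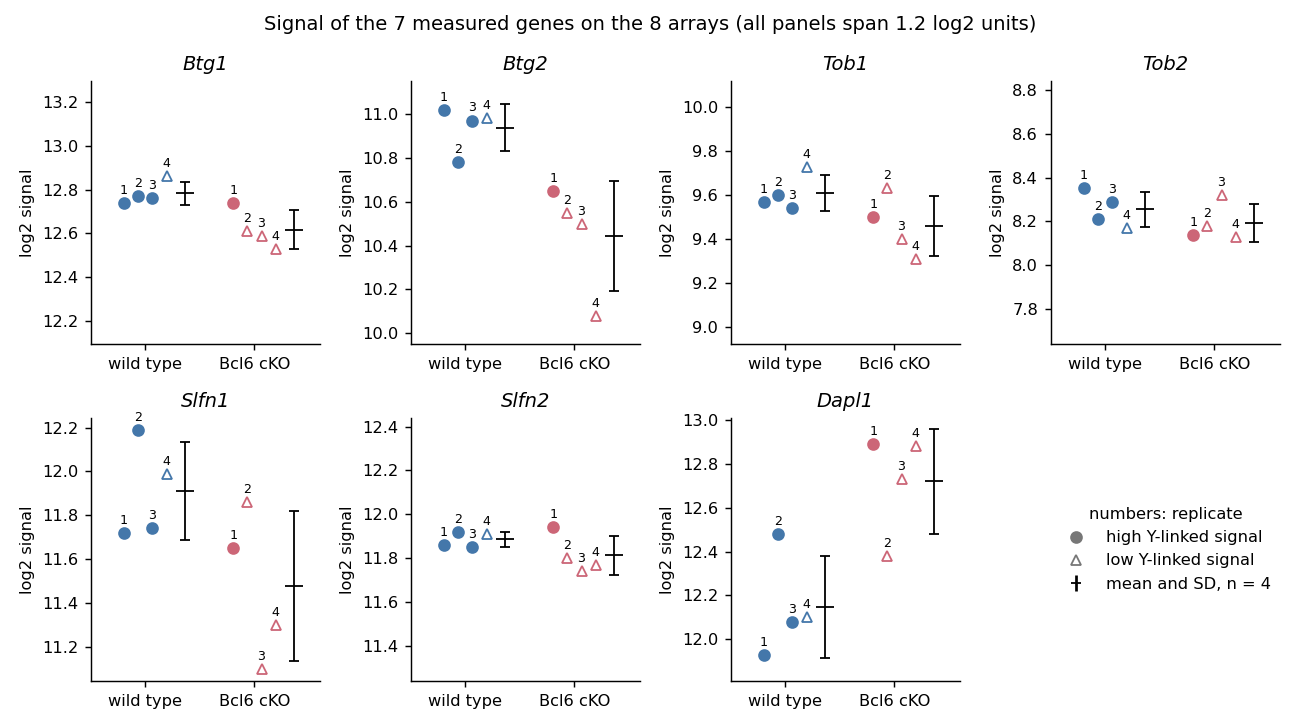
Log2 signal of each gene on each array (numbers are replicates, bars are mean and SD of 4 arrays). The groups are separate for Btg2 alone, where the 4 Bcl6 cKO arrays read 10.08 to 10.65 and the 4 wild-type arrays 10.78 to 11.02.

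Btg2, an immediate early gene and p53 target as well as a brake on division, read 11.02, 10.78, 10.97 and 10.98 on wild-type replicates 1 to 4. On Bcl6 cKO replicates 1 to 4 it read 10.65, 10.55, 10.50 and 10.08. All 4 knockout arrays lay below all 4 wild-type arrays, and it was the 1 gene of the 7 whose groups did not overlap, as was true of 5.97% of all genes. The mean was 10.94 ± 0.11 (SD, n = 4) on the wild-type arrays and 10.45 ± 0.25 on the others. The log2 difference was -0.49, with a standard error of 0.11 and a 95% confidence interval of -0.74 to -0.25, or 1.41-fold lower. A two-sided exact permutation test of the 8 values gave p = 0.0286, the smallest that 4 against 4 arrays allow, and limma's adjusted p was 0.124. By unadjusted p Btg2 ranked 175 among all genes. Replicate 4 was the lowest knockout array, and without it the log2 difference was -0.37.

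Btg1, the close relative of Btg2, differed less. Its wild-type values were 12.74, 12.77, 12.76 and 12.86, and its Bcl6 cKO values 12.74, 12.61, 12.59 and 12.53. Replicate 1 of Bcl6 cKO equalled the lowest wild-type array and the other 3 lay below it. The means were 12.78 ± 0.05 and 12.62 ± 0.09 (SD, n = 4 each), a log2 difference of -0.17 (95% confidence interval -0.29 to -0.04, limma adjusted p = 0.318, two-sided exact permutation p = 0.0571). The log2 difference of Btg2 was 0.33 below that of Btg1, as read from the array-wise difference between the 2 genes. Over the 3 pairs of relatives compared this way (Btg2 with Btg1, Tob1 with Tob2, Slfn1 with Slfn2), that difference did not pass an exact permutation test after adjustment (p = 0.0286, adjusted p = 0.0857).

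Tob1, the larger relative known for restraining T cell activation, read 9.57, 9.60, 9.54 and 9.73 in wild type and 9.50, 9.63, 9.40 and 9.31 in Bcl6 cKO. Of the knockout arrays 3 were below every wild-type array, and replicate 2 lay among them. The log2 difference was -0.15 (95% confidence interval -0.31 to 0.01, limma adjusted p = 0.512). Tob2, which also binds the deadenylase, read 8.35, 8.21, 8.29 and 8.17 in wild type and 8.14, 8.18, 8.32 and 8.13 in Bcl6 cKO. Its groups overlapped widely and its log2 difference was -0.06, with an interval of -0.20 to 0.07 (limma adjusted p = 0.797). With 1 array left out it ran from -0.11, without Bcl6 cKO replicate 3, to -0.03, without wild-type replicate 1. The differences of Tob1 and Tob2 were themselves 0.09 apart and not distinguished (exact permutation p = 0.486, adjusted p = 0.486).

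Slfn1 had the widest spread of the 7 genes in Bcl6 cKO. It read 11.72, 12.19, 11.74 and 11.99 in wild type and 11.65, 11.86, 11.10 and 11.30 in Bcl6 cKO. Knockout replicates 3 and 4 were far below every wild-type array, replicate 1 just below, and replicate 2 above wild-type replicates 1 and 3. The means were 11.91 ± 0.22 and 11.48 ± 0.34 (SD, n = 4 each), 1.35-fold lower, with a log2 difference of -0.43 (95% confidence interval -0.78 to -0.08, limma adjusted p = 0.349, exact permutation p = 0.114). Without replicate 3 of Bcl6 cKO the difference was -0.31.

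Slfn2, whose loss is known to break T cell quiescence, was nearly level across the arrays. It read 11.86, 11.92, 11.85 and 11.91 in wild type, a range of 0.07, and 11.94, 11.80, 11.74 and 11.77 in Bcl6 cKO. Of the knockout arrays 3 lay below and 1 above all wild-type arrays. The log2 difference was -0.07, with an interval of -0.20 to 0.05 (limma adjusted p = 0.713). With 1 array left out it ran from -0.12, without Bcl6 cKO replicate 1, to -0.05, without replicate 3. Slfn1 and Slfn2 are near neighbours on chromosome 11, with 2 gene models (Gm20234 and Gm51911) between them in RefSeq's order. The difference of Slfn1 was 0.36 below that of Slfn2, and this gap did not pass an exact permutation test (p = 0.114, adjusted p = 0.171 over the 3 pairs).

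Dapl1 was the 1 gene of the 7 with a higher mean in Bcl6 cKO. It read 11.93, 12.48, 12.08 and 12.10 in wild type and 12.89, 12.38, 12.73 and 12.88 in Bcl6 cKO. Knockout replicates 1, 3 and 4 lay above every wild-type array, and replicate 2 lay below wild-type replicate 2, so the groups overlapped by that pair. The means were 12.15 ± 0.23 and 12.72 ± 0.24 (SD, n = 4 each), 1.49-fold higher, with a log2 difference of 0.57 (standard error 0.13, 95% confidence interval 0.28 to 0.87). Limma's adjusted p was 0.131 and the exact permutation p 0.0571. By the size of the difference Dapl1 ranked 102 among all genes and Btg2 165.

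The lower values were not spread evenly over the knockout arrays. Replicate 4 of Bcl6 cKO was the lowest of the 8 arrays for Btg1, Btg2, Tob1 and Tob2, and replicate 3 for Slfn1 and Slfn2. Ranked over the 8 arrays, the median rank of the 6 genes other than Dapl1 was 1.0 on replicate 4, 2.0 on replicate 3 and 3.5 on replicates 1 and 2, where 1 is the lowest. On the wild-type arrays the median ranks were 5.0 to 7.0, with replicate 4 the highest. As these 6 are the genes with a lower mean in Bcl6 cKO, lower ranks there than in wild type were largely given in advance. The median also hides exceptions: on Bcl6 cKO replicate 3 Tob2 read 8.32, below wild-type replicate 1 (8.35) alone.

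The labels do not give the sex of the mice, and it was unevenly split. Wild-type replicates 1 to 3 and Bcl6 cKO replicate 1 had high Y-linked signal, and wild-type replicate 4 and Bcl6 cKO replicates 2 to 4 low. Among the 4 arrays of high Y-linked signal, the log2 differences were -0.27 for Btg2, -0.02 for Btg1, -0.07 for Tob1, -0.23 for Slfn1 and 0.73 for Dapl1. Within the others they were -0.60, -0.28, -0.28, -0.57 and 0.56. The signs of Tob2 (-0.14 and 0.04) and Slfn2 (0.06 and -0.14) were opposite between these sets of arrays. Each set holds 1 array of a genotype against 3. The lone wild-type array in the second, replicate 4, had the lowest array weight of the 8 (0.367, the others 0.759 to 1.49). This weight is limma's estimate of how closely an array follows the mean of its own genotype. Sex was not a term in that fit, so the low weight of this array cannot be told apart from its low Y-linked signal. The test of whether the genotype difference depended on Y-linked signal passed for none of the 7 genes. Unadjusted, it was under 0.05 for Btg1 alone (limma adjusted p = 0.385), and the adjusted p-values of the other 6 were 0.464 to 0.870. With sex as a term in the fit over the 8 arrays, the difference of Btg2 was -0.44 (limma adjusted p = 0.352). That of Dapl1 was 0.65 (limma adjusted p = 0.249). Of the 4 genes at an unadjusted p under 0.05 without this term, Btg2 and Dapl1 stayed under 0.05 with it. Btg1 (-0.15) and Slfn1 (-0.40) did not.

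**Figure D2:**
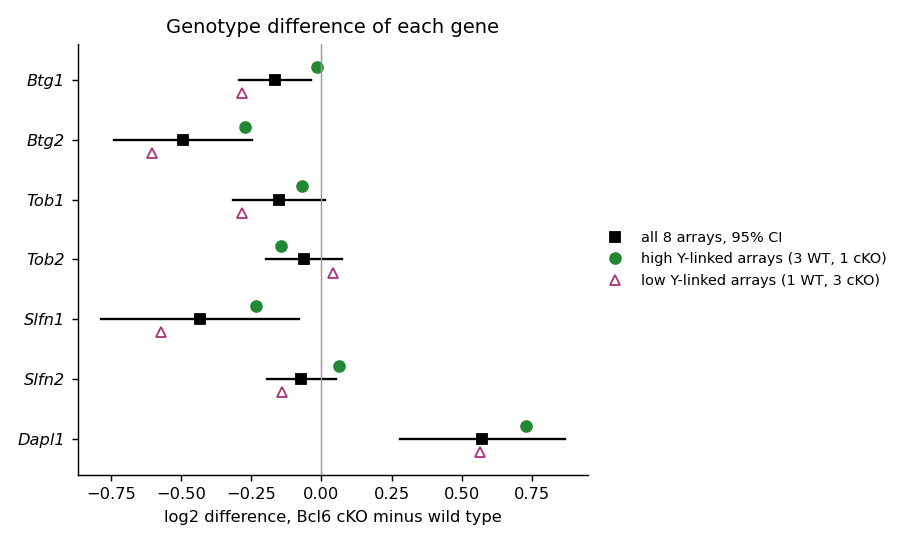
Log2 difference of each gene over all 8 arrays with its 95% confidence interval from limma (squares), and the difference among the arrays with high (circles) and low (triangles) Y-linked signal. Dapl1 is above 0 in all 3 (0.57, 0.73 and 0.56). Btg2 (-0.49, -0.27 and -0.60), Btg1, Tob1 and Slfn1 are below 0 in all 3. For Btg2 and Btg1, where no knockout array lay above a wild-type array, the sign could not turn.

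The genotype difference of all 7 genes had the same sign whichever array was left out. For Btg2 and Btg1, where no knockout array lay above a wild-type array, the sign could not turn. The ranges of the 4 genes at an unadjusted p under 0.05 were as follows. Btg2 ran from -0.56 to -0.37, Btg1 from -0.21 to -0.14, Slfn1 from -0.56 to -0.31 and Dapl1 from 0.50 to 0.69. Limma's adjusted p reached its lowest value for Btg2 without Bcl6 cKO replicate 1 (0.0662). With that array left out, every remaining knockout array had low Y-linked signal, while of the wild-type arrays replicate 4 alone did. For Dapl1 limma's adjusted p was lowest without Bcl6 cKO replicate 2 (0.0693), the array on which Dapl1 overlapped with wild type. It was 0.0951 without wild-type replicate 2, the other array of that overlap.

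**Figure D3:**
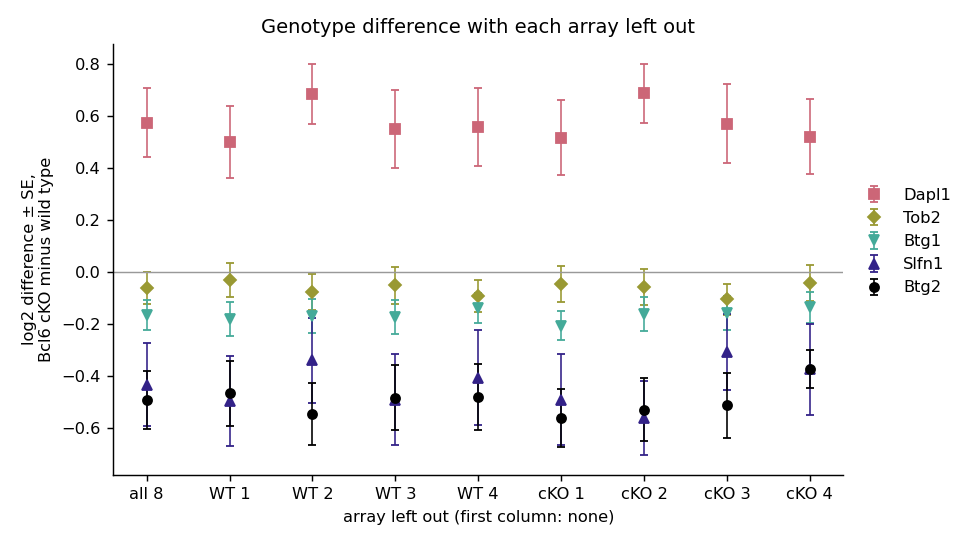
Log2 difference (Bcl6 cKO minus wild type) with its limma standard error for 5 of the genes, with all 8 arrays (first column) and with each array left out. Dapl1 stays between 0.50 and 0.69 and Btg2 between -0.56 and -0.37, while Tob2 runs from -0.11 to -0.03.

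The genes that act with the Btg and Tob proteins showed small differences. Of 16 measured CCR4-NOT and poly(A) tail genes 9 lay above wild type and 7 below, with a median log2 difference of 0.01, and none passed limma's test over all genes (1 at an unadjusted p under 0.05). Their differences ran from -0.12 for Cnot6l, a deadenylase subunit (adjusted p = 0.418), to 0.12 for Cnot9, a non-catalytic subunit (adjusted p = 0.572). The second deadenylase of that type, Cnot6, was at 0.11. Prmt1, an arginine methyltransferase that binds Btg1 and Btg2, had a difference of 0.17 (10.52 ± 0.06 against 10.69 ± 0.14, SD, n = 4 each, limma adjusted p = 0.409). Btg4, the germ cell member of the family, read 4.95 and 4.85, within the background range. Dap, the relative of Dapl1, stood on the other side of wild type from Dapl1: 11.16 ± 0.13 in wild type and 10.78 ± 0.05 in Bcl6 cKO (SD, n = 4 each). The log2 difference was -0.37 with separate groups, just short of the threshold (limma adjusted p = 0.0580).

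Of 7 other Schlafen genes 4 were above and 3 below wild type (median 0.04) and none passed over all genes (1 at an unadjusted p under 0.05). Slfn5, a long Schlafen protein, had the lowest difference, -0.28 (limma adjusted p = 0.437). Slfn9 was at 0.17 and Slfn3 at 0.10. Schlafen genes are induced by type I interferon in several cell types. Of 8 measured interferon genes 6 were below wild type (median -0.12) and none passed. Ifit1, an interferon-induced binder of foreign RNA, had a difference of -0.76 (limma adjusted p = 0.256), Ifit3 of -0.41 (0.201) and Oas1a of 0.22 (0.297).

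For Btg2, p53 targets and immediate early genes give context, as it belongs to both groups. Of 7 p53 genes measured 4 were above and 3 below wild type (median 0.0025). Trp53inp1, a p53-induced regulator of autophagy and cell death, had the lowest difference, -0.42 (limma adjusted p = 0.226), Sesn2 was at -0.22 and Ccng1 at -0.08. Of 12 immediate early genes 5 were above and 7 below (median -0.11). Atf3 was at 1.03 (limma adjusted p = 0.160), Fos at -0.34 (0.351) and Myc at 0.17 (0.350). None of these genes passed over all genes. At an unadjusted p under 0.05 stood 1 p53 gene, 3 immediate early genes and 3 interferon genes, beside 10.9% of all genes.

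Other genes known to keep T cells at rest lay on the same side as Btg1 and Btg2. All 20 measured quiescence genes had a lower mean in Bcl6 cKO, with a median log2 difference of -0.18, and none passed limma's test over all genes. At an unadjusted p under 0.05 on the low side stood 9 of the 20, beside 6.17% of all genes. The list overlaps in content with one whose direction in these data was known when it was written, so its direction is not independent evidence. Lef1, a transcription factor of naive T cells, had a difference of -0.23 (limma adjusted p = 0.177), the retinoblastoma relative Rbl2 of -0.24 (0.188) and the glucocorticoid-induced gene Tsc22d3 of -0.53 (0.204). Without any 1 array 17 to 20 of the 20 were below wild type, and 17 within either set of arrays by Y-linked signal. The array means of the list were lowest on Bcl6 cKO replicates 3 and 4 (10.36 and 10.40, the other 6 arrays 10.57 to 10.89). The median rank of the 6 Btg, Tob and Schlafen genes was lowest on the same arrays. As both sets have lower means in Bcl6 cKO, low values on knockout arrays were largely given in advance.

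Of 28 cell cycle genes 26 were above wild type (median 0.19) and none passed over all genes. At an unadjusted p under 0.05 on the high side stood 8 of the 28, beside 4.68% of all genes. The topoisomerase gene Top2a had a difference of 0.45 (limma adjusted p = 0.226), the cyclin gene Ccne2 of 0.49 (0.233) and the mitotic kinase gene Bub1 of 0.58 (0.322). The array means of this list were highest on Bcl6 cKO replicates 4 and 3 (10.32 and 10.25) and lowest on wild-type replicate 4 (9.69). Wild-type replicate 2 (10.11) was above Bcl6 cKO replicates 1 (9.97) and 2 (9.88). Among the arrays of high Y-linked signal 17 of the 28 were above wild type, with a median of 0.04. The part of dividing cells in the Btg, Tob and Schlafen values was not tested.

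**Figure D4:**
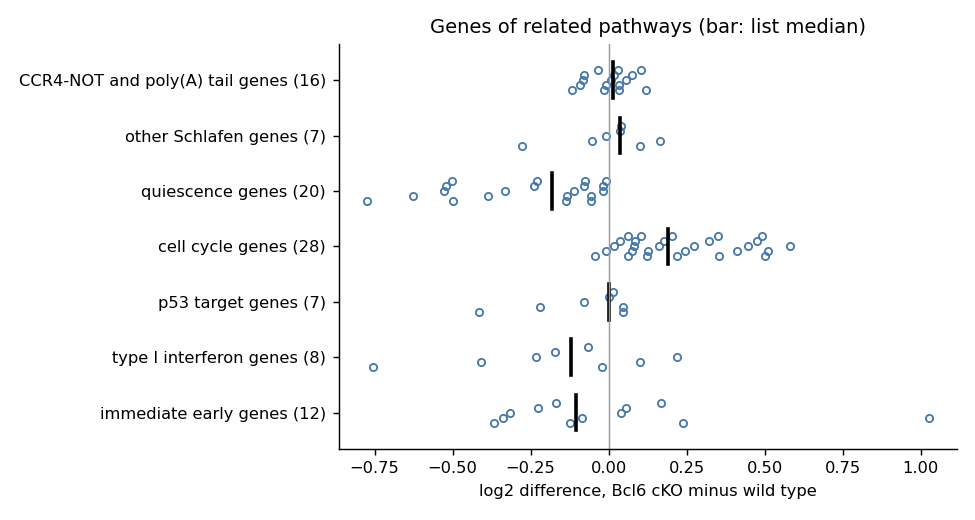
Log2 difference of each measured gene (circles) in 7 lists of related genes, with the number of genes in brackets and the list median as a bar. The quiescence genes all lie below 0 (median -0.18) and 26 of 28 cell cycle genes above it (median 0.19), while the CCR4-NOT and poly(A) tail genes stay within 0.12 of 0.

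Markers of the sorted cells were present: the 6 CD4 T cell markers averaged 12.69 to 12.73 on the wild-type arrays and 12.51 to 12.69 on the Bcl6 cKO arrays. Cd3d had the lowest difference, -0.17 (limma adjusted p = 0.242), Cd28 was at -0.14 and Cd3g at -0.12. Of 6 activation markers 5 were above wild type. Among the arrays of low Y-linked signal 5 of the 6 were, and among those of high Y-linked signal 3. Cd44, an adhesion receptor that marks activated cells, had a difference of 0.82 (limma adjusted p = 0.178), the cytokine gene Il2 of 0.57 (0.343) and the transferrin receptor gene Tfrc of 0.14. Cd44 and Il2 read highest on Bcl6 cKO replicate 2 (9.28 and 12.23), and on the other knockout arrays 8.33 to 8.92 and 11.05 to 11.88. Cd8b1, a chain of the CD8 coreceptor, read 11.04 ± 0.10 in wild type and 10.57 ± 0.16 in Bcl6 cKO (SD, n = 4 each, limma adjusted p = 0.0541), a difference of -0.47, while Cd8a read 6.99 and 6.97. The 2 CD8 markers together averaged 8.91 to 9.13 in wild type and 8.65 to 8.91 in Bcl6 cKO. Their part in the values of Btg2 was not tested.

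Of the markers of other cells, the 5 B cell markers averaged 6.42 to 6.47 in wild type and 6.39 to 6.52 in Bcl6 cKO (Ms4a1 at -0.17, Pax5 and Cd79b both at 0.11). The 8 myeloid and dendritic cell markers averaged 6.17 to 6.33 and 6.16 to 6.37 (Zbtb46 at -0.10, Itgam at -0.12, Adgre1 at 0.07), and the 4 NK cell markers 5.73 to 6.13 and 5.68 to 5.84 (Klrd1 at -0.49, Klrb1c at -0.13, Ncr1 at 0.14). The 3 red cell and platelet markers averaged 5.46 to 5.55 in wild type and 5.52 to 6.28 in Bcl6 cKO (Alas2 at 0.10, Pf4 at 0.17, Ppbp at 0.38). None of these passed over all genes. By group means, 1 B cell marker (Ms4a1), 2 myeloid (Adgre1 and Clec9a), 3 NK cell (Klrd1, Klrb1c and Ncr1) and 2 platelet markers (Pf4 and Ppbp) were not above the background range in either group, while the NK cell marker Eomes, which T cells can also express, averaged 8.32 and 8.06. On single arrays Ppbp reached 6.59, Klrd1 5.85 and Ncr1 5.87, above that range.

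Replicate 2 of Bcl6 cKO stood apart in platelet markers and in 1 myeloid marker. Its mean over the red cell and platelet list was 6.28, the others at most 5.57, while its mean over the myeloid list, 6.37, was the highest by little (the next 6.33). The platelet chemokine gene Ppbp read 6.59 on it and 4.88 to 5.14 on the other 7 arrays, and Pf4, also of platelets, 5.42 against 4.69 to 4.92. Lyz2, the lysozyme gene of myeloid cells, read 7.67 on it and 5.82 to 6.58 on the others. This is the knockout array on which Dapl1 overlapped with wild type, and it did so with wild-type replicate 2 alone (12.38 against 12.48). Leaving out wild-type replicate 2 moved the difference of Dapl1 about as far, to 0.68. Without Bcl6 cKO replicate 2 the log2 differences were 0.69 for Dapl1, -0.53 for Btg2, -0.56 for Slfn1, -0.16 for Btg1 and -0.21 for Tob1. None of the 7 genes then passed limma's test over all genes. The part of platelets and myeloid cells in the values of the 7 genes was not tested.

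The genes whose values followed each gene most closely over the 8 arrays were sought by Pearson's r among genes at or above the median signal, as a description of these arrays. Btg2 was followed by Qprt, Rnf145 and Clec2i (r = 0.968, 0.967 and 0.967), and of these Clec2i, a lectin-like ligand gene, had a log2 difference of -0.50 (limma adjusted p = 0.0786). Btg1 was followed by Calcoco1, Frmd8 and Chfr, a mitotic checkpoint gene (r = 0.984, 0.984 and 0.981). Tob1 was followed by Ubxn7, Zyg11b and Prkcb (r = 0.980, 0.980 and 0.973) and Tob2 by Ric1, Rps19 and Unc45a (r = 0.966, 0.962 and 0.956). For Slfn1 they were Boll, Rsrp1 and Rbms1 (r = 0.994, 0.985 and 0.985), and for Slfn2 Ms4a4c, Cd55 and Pear1 (r = 0.958, 0.943 and 0.941). Dapl1 was followed by Haus6, which acts in spindle assembly, the chromatin gene Dek and Pkd1l3 (r = 0.946, 0.945 and 0.944). No gene was named for 2 of the 7. With 19938 genes and 8 arrays, high correlations arise for any gene, and the arrays share genotype and sex, so these values show likeness only.

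The Bcl6 gene itself, read by 1 cluster, averaged 8.37 ± 0.20 on wild-type and 8.74 ± 0.27 on Bcl6 cKO arrays (SD, n = 4 each, limma adjusted p = 0.337). The labels do not say which exons were removed, so its signal does not check the genotypes. Over all genes the correlation between any pair of arrays was 0.994 or higher and the median signal 7.57 to 7.64.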

How the data were processed

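The authors deposited log2 signals of 35556 transcript clusters on 8 arrays. RMA and Partek are named in the submitters' processing notes, without versions or settings. RMA corrects background, equalises the distributions of the arrays and summarises probes, which shrinks differences of dim genes.

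Clusters with 1 gene symbol in the platform annotation (21789) were named, and the cluster with the highest mean was kept per gene (19938 genes). No column of sample values was unused. All genes were tested in R 4.3.3 with limma 3.58.1 (linear model and empirical Bayes, no covariate, no filter), using Benjamini-Hochberg adjustment over all genes. Exact permutation tests were two-sided. Arrays give no read depth, so their number limits the precision. The fit was tested on simulated data.

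The 8 genes and the 16 other lists (152 entries, 139 measured) were chosen with earlier results of these data known. The text names, per list, the 3 genes with the smallest p, and per member the 3 genes most like it by r, leaving out predicted models and clones. Clec9a, to complete a count, and Lyz2, Eomes and the single-array marker values were chosen after their values were seen. The comparisons of gene pairs and the interaction with sex were added after the data were seen. No member had a second cluster of its own.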

Additional observations from a re-analysis of the deposited data

How the results depend on the processing

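None of the 7 genes passed limma's threshold over all genes in any of 18 other settings each. Quantile normalization, median centring, array weights, eBayes with trend and robust settings, leaving out dim genes, averaging a gene's clusters, the replicate block, a term for sex, and leaving out each array kept the sign of all 7. Trend and robust settings, leaving out dim genes, averaging clusters (1 for each gene here) and the replicate block cannot change a difference. In these settings, which count among the 18, the sign was therefore fixed. With the replicate block limma's adjusted p was 0.130 for Btg2 (-0.49), 0.186 for Dapl1 (0.57) and 0.152 for Slfn1 (-0.43). The standard error of Slfn1 was 0.10 with the block and 0.16 without it. Deviations of same-numbered arrays from their group means correlated at r = 0.073 to 0.206 across genes. Replicates 2, 3 and 4 each correlated best with their own number (r = 0.206, 0.203 and 0.205), and replicate 1 did not (0.073). The labels do not state pairs, so the main fit did not take the numbers as pairs. Whether they are pairs was not tested. Over the 18 settings adjusted p ran from 0.0662 to 0.995 for Btg2, from 0.0693 to 0.995 for Dapl1 and from 0.152 to 0.995 for Slfn1. An unadjusted p under 0.05 was reached in 17 of 18 for Btg2, in 18 for Dapl1, in 15 for Btg1 and in 10 for Slfn1. The sign turned for Tob2 within the arrays with low Y-linked signal (0.04) and for Slfn2 within those with high Y-linked signal (0.063); the cause was not tested.

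The count of all genes past the threshold, 44, was 91 with trend and robust options, 80 with array weights, 75 among genes at or above the median signal (fewer genes tested), 10 with sex as a term, 35 with the replicate block and 132 at an adjusted p of 0.1. Leaving out 1 array gave 11 to 139. Without wild-type replicates 1 to 4 the count was 11, 18, 18 and 12, and without Bcl6 cKO replicates 1 to 4 139, 22, 11 and 11. The 139 came from the fit in which every knockout array had low Y-linked signal.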
